A study of Mus musculus with 10 samples.

Results

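The genes described here are the TGF-beta ligands *Tgfb1*, *Tgfb2* and *Tgfb3*, the receptors *Tgfbr1*, *Tgfbr2* and *Tgfbr3*, and the contractile genes *Acta2*, *Tagln*, *Cnn1* and *Myl9*, chosen by symbol. All 10 of the 10 symbols were found among the 25229 rows of the count table, each once, and all 10 passed the filter on low counts together with 14251 genes in all. The cells were adipose stem and precursor cells (ASPCs), from wild-type (WT) mice, sorted as CD45-CD31-Pdgfra+ out of digested perigonadal white adipose tissue (gWAT), grown to confluence without passaging in medium with 2% serum and fibroblast growth factor, and then lysed for bulk RNA sequencing. The 5 FICZ libraries came from cells given 100 nM FICZ, a ligand of the aryl hydrocarbon receptor (AHR), for 6 hr, and the 5 DMSO libraries from cells given the vehicle for 6 hr. No age or sex is given for this experiment, and the labels do not say whether the samples of a group came from separate mice or cultures, so that p-values measure only the spread between these samples.

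TGF-beta is made as a latent complex that is stored in the extracellular matrix and must be released before it acts. The active ligand binds the type II receptor TGFBR2, which recruits and phosphorylates the type I receptor TGFBR1 (ALK5), and the signal passes through SMAD2, SMAD3 and SMAD4 to target genes. TGFBR3 (betaglycan) is a co-receptor that presents the ligand, TGF-beta 2 above all, to the signalling receptors. Fibroblasts exposed to TGF-beta and to a stiff surface become myofibroblasts, which assemble smooth muscle actin (*Acta2*), SM22 (*Tagln*), calponin (*Cnn1*) and regulatory myosin light chain (*Myl9*) into stress fibres. The promoters of contractile genes carry CArG boxes, the binding motif of serum response factor (SRF) and its actin-sensing co-factors MRTF-A and MRTF-B.

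None of the 10 genes was called different between FICZ and DMSO, and none had groups that did not overlap. Their levels differed more between the replicate numbers of the labels than between the treatments. *Tagln*, *Acta2*, *Cnn1* and *Myl9* were low in the libraries numbered 5 of both groups, while *Tgfb2*, *Tgfbr2* and *Tgfbr3* were high in them. Between the replicate numbers the levels of *Tagln* spanned 3.79-fold and the levels of *Cnn1* spanned 5.66-fold, whereas their folds between the treatments were 1.09 and 0.968. These measures are unlike, since the spans set the highest against the lowest of 5 pair means. Only *Tagln* passed an adjusted test between numbers, and not when any one library numbered 1 to 4 was left out. Over all genes too the number took more of the sum of squares of log2 CPM (median 58.1%) than the treatment (4.35%).

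The CArG motifs that a search found near the starts of these genes are shown because the contractile genes varied together from library to library. RefSeq promoters (GRCm38.p6, 250 bases before the start) were matched for 7 of the 10 genes, and *Tgfb3*, *Tgfbr3* and *Tagln* had none in the table. Each line holds 30 bases, 5′ to 3′ on the strand of the gene, with the 10 bases of the motif in capitals. *Myl9* (chromosome 2, + strand) had a full CArG box 161 to 152 bases before its start, and a box with 1 base changed 99 to 90 bases before it. *Acta2* (chromosome 19, - strand) had boxes with 1 base changed 84 to 75 and 34 to 25 bases before its RefSeq start, and both lie within an exon of the GENCODE annotation. *Tgfbr2* (chromosome 9, - strand) had a box with 1 base changed 73 to 64 bases before its start. Neither kind of box was found for the contractile gene *Cnn1*, nor for *Tgfb1*, *Tgfb2* and *Tgfbr1*. *Tgfbr2*, with its changed box, was high in the libraries numbered 5, where the contractile genes were low, with a box (*Myl9*, *Acta2*) or without (*Cnn1*). *Tagln* had no promoter to search. Any part of these motifs in the variation from library to library was not tested. The sequences were:
Myl9, chr2:156775293-156775322: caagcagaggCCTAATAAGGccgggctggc
Myl9, chr2:156775355-156775384: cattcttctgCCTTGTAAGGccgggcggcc
Acta2, chr19:34255438-34255467: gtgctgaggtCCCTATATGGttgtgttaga
Acta2, chr19:34255388-34255417: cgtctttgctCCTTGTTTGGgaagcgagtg
Tgfbr2, chr9:116175417-116175446: aatccagcggCCTTGATTGGcggccggagg

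Of all 32851 promoters of the same length, 1.47% held a CArG box and 7.24% held a box with 1 change, a search that was added once the strict one was seen to miss *Acta2*. The other searches covered both strands. CATTCC, bound by TEAD factors, was found in *Acta2* and in 12.6% of all promoters. GCGTG, the core of the AHR response element, was found in *Tgfbr1*, *Tgfb1*, *Cnn1* and *Tgfbr2* and in 28.2% of all promoters. TATAAA was found in *Tgfb2* and in 12.4% of all promoters. These matches describe letters and no measurement of binding was made.

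Levels of the genes were compared as CPM (counts scaled to a common library size after TMM scaling) per kb of annotated exon. The contractile genes spanned the whole scale, with *Tagln* the highest of the 10 genes at 173 ± 74.7 (SD, n = 10 libraries) and *Cnn1* the lowest at 0.692 ± 0.446 CPM per kb. *Acta2* followed *Tagln* at 134 ± 42.9, and the ranges of the pair overlapped. *Myl9* at 46.2 ± 10.2 CPM per kb lay below every library of *Acta2* and overlapped with *Tgfbr3* at 41.7 ± 6.67.

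**Figure D1:**
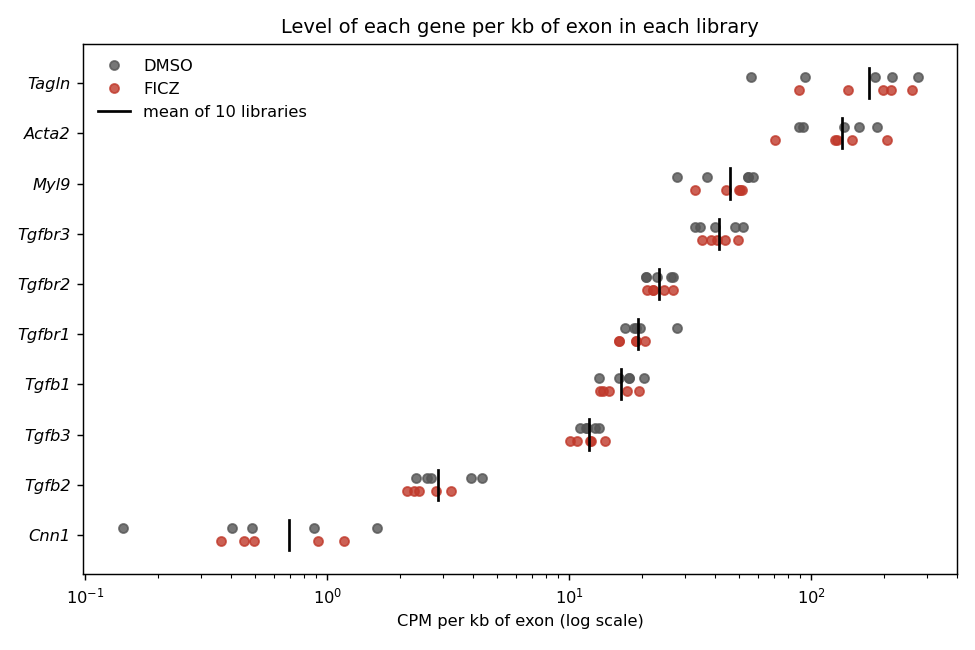
CPM per kb of exon (log scale) of each gene in each of the 5 DMSO libraries (grey) and 5 FICZ libraries (red), with the mean of all 10 as a black bar. The DMSO and FICZ points overlap for every gene, *Tagln* and *Acta2* are the highest, and *Cnn1* is the lowest.

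By their means the receptors stood above the ligands. *Tgfbr3* was higher per kb than *Tgfbr2* (23.5 ± 2.51) in every library, *Tgfbr2* overlapped with *Tgfbr1* (19.2 ± 3.36), and *Tgfbr1* overlapped with *Tgfb1* (16.3 ± 2.54). *Tgfb1* in turn overlapped with *Tgfb3* (12 ± 1.17), and *Tgfb2* (2.87 ± 0.743 CPM per kb) was below both other ligands in every library. The place of *Tgfb1* depends on the transcript assumed, since its exons cover 5042 bases together and its longest transcript only 2573 bases. By the longest transcript *Tgfb1* reached 32 CPM per kb, above *Tgfbr1* (21.8) and *Tgfbr2* (23.7).

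The ligand make-up of a library was given by the share of each ligand in the sum of the 3 per kb. *Tgfb1* made up 52.5% ± 3.62 (SD, n = 5) with DMSO and 52.0% ± 5.46 with FICZ, *Tgfb3* 37.7% ± 2.20 and 39.5% ± 4.70, and *Tgfb2* 9.84% ± 2.65 and 8.51% ± 1.10. Exact two-sided permutation tests gave p = 0.873, 0.476 and 0.333 for these 3 shares. Among the receptors *Tgfbr3* made up 48.5% ± 2.19 and 50% ± 1.54 (exact permutation p = 0.238), *Tgfbr2* 27.7% ± 1.52 and 28.2% ± 1.41 (p = 0.643), and *Tgfbr1* 23.8% ± 2.45 and 21.8% ± 1.97 (p = 0.198). The *Tgfbr1* share was lower with FICZ in 5 of 5 same-numbered pairs, for which the smallest two-sided p of a paired permutation test is 0.0625.

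The comparison of FICZ with DMSO asked whether AHR activation for 6 hr alters the expression of these genes. With edgeR, 0 of these 10 genes were called at an adjusted p of 0.05, beside 0.0211% of all genes tested, which are the AHR targets *Cyp1a1*, *Ahrr* and *Tiparp*. At an unadjusted p of 0.05, 0 of 10 passed, beside 4.82% of all genes, and DESeq2 called none of the 10 either. No gene had FICZ libraries all on one side of the DMSO libraries, beside 0.47% of all genes. The fitted log2 fold change was above 0 in 3 of 10 genes and in 53.8% of all genes, and its median was -0.02 over the 10 and 0.01 over all genes. With the replicate number as a block 0 of 10 were called, beside 0.0561% of all genes, and 1 of 10 (*Tgfb2*) had an unadjusted p under 0.05, beside 4.65%.

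**Figure D2:**
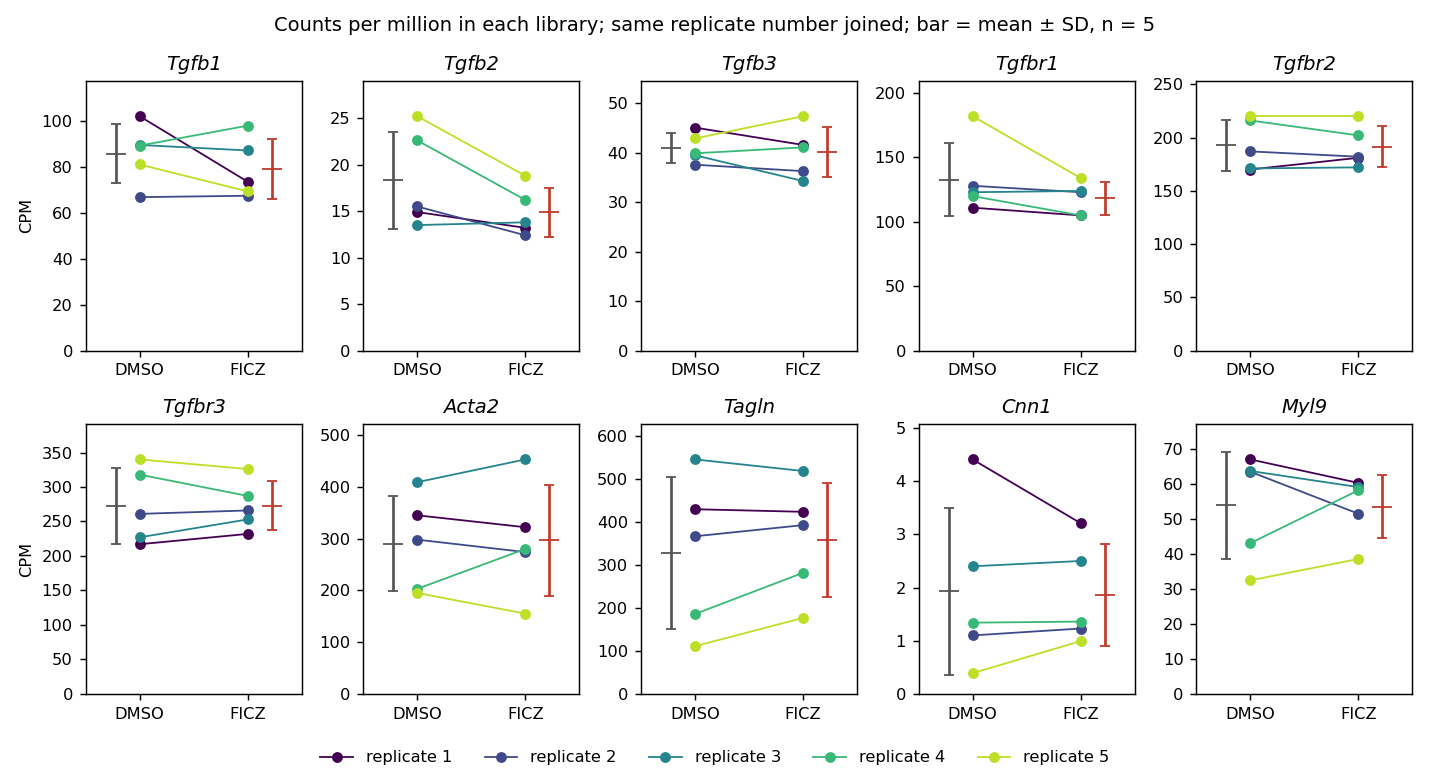
CPM of each gene in the DMSO and FICZ libraries, with same-numbered libraries joined by a line of one colour and the mean ± SD (n = 5) at the side; each panel starts at 0 and has its own scale. Lines run mostly level, and the distance between replicate numbers exceeds that between treatments for most genes. The order of the numbers is the same in both groups for *Tagln*, *Cnn1* and *Tgfbr3* and changes for the other genes.

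*Tgfb2*, the ligand that depends most on betaglycan, had the largest estimate of the 10. Its DMSO libraries numbered 1 to 5 held 14.9, 15.5, 13.5, 22.6 and 25.2 CPM, and the FICZ libraries 13.2, 12.4, 13.8, 16.2 and 18.8 CPM. The groups overlapped, FICZ was below DMSO in 4 of 5 pairs, and the libraries numbered 4 and 5 were the highest of their group in both treatments. The log2 fold change was -0.30 ± 0.19 (SE), with a 95% interval from -0.71 to 0.11 (edgeR adjusted p = 0.999). With the replicate block it was -0.28 ± 0.09, with an interval from -0.49 to -0.06 (edgeR unadjusted p = 0.0191, adjusted p = 0.929). Without DMSO replicate 5 the log2 fold change of *Tgfb2* was -0.16.

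*Tgfbr1*, the type I receptor, had 111, 128, 123, 120 and 182 CPM in the DMSO libraries and 105, 123, 124, 105 and 134 CPM in the FICZ libraries. The highest value was that of DMSO replicate 5, and the other libraries lay close together. Its log2 fold change was -0.17 ± 0.13 (95% interval -0.46 to 0.12, edgeR adjusted p = 0.999), and -0.03 without DMSO replicate 5. *Tgfb1*, the ligand most abundant in these cells, ranged from 66.8 to 102 CPM with DMSO and from 67.4 to 97.9 with FICZ, and its fold between the groups was 0.922 with a 95% interval from 0.754 to 1.13.

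The intervals of *Tgfb3* and *Tgfbr2* were the narrowest of the 10, and the estimate of *Tgfbr3* was the closest to no change. *Tgfb3* had a fold of 0.979 (95% interval 0.845 to 1.13), *Tgfbr2*, the ligand-binding receptor, of 0.993 (0.850 to 1.16), and *Tgfbr3* of 1.00 (0.809 to 1.24). With the replicate block the interval of *Tgfbr2* ran from 0.906 to 1.09 and that of *Tgfbr3* from 0.907 to 1.12, so changes beyond these sizes lay outside the 95% intervals.

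**Figure D3:**
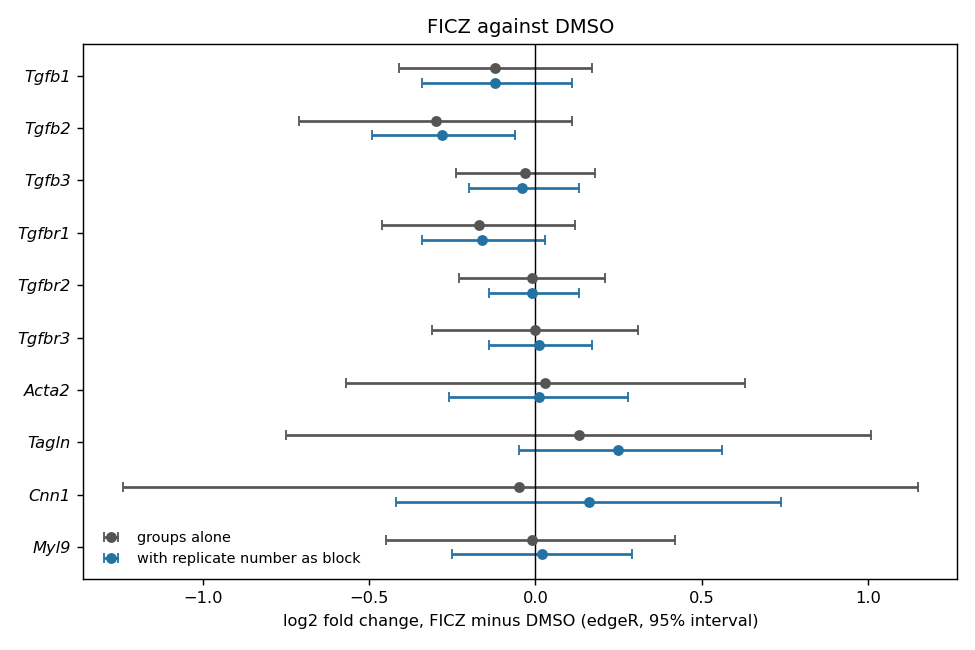
Log2 fold change of FICZ against DMSO for each gene with its 95% interval, from edgeR on the groups alone (grey) and blocked by replicate number (blue). All grey intervals hold 0, those of the contractile genes are the widest, and the block narrows them; the blue interval of *Tgfb2* lies from -0.49 to -0.06.

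The contractile genes had fold estimates close to 1 and wide intervals. The log2 fold change was 0.03 ± 0.27 (SE) for *Acta2*, 0.13 ± 0.40 for *Tagln*, -0.05 ± 0.55 for *Cnn1* and -0.01 ± 0.20 for *Myl9*, each with an edgeR adjusted p of 0.999. The 95% intervals in fold ran from 0.676 to 1.55 for *Acta2*, 0.596 to 2.01 for *Tagln*, 0.422 to 2.22 for *Cnn1* and 0.734 to 1.34 for *Myl9*. With the block they ran from 0.836 to 1.22, 0.965 to 1.47, 0.746 to 1.67 and 0.843 to 1.23. The sign was not stable, and without DMSO replicate 5 the log2 fold changes of *Tagln* and *Acta2* were -0.09 and -0.08.

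The spread behind these intervals followed the replicate number. *Tagln*, which codes for an actin-bundling protein of smooth muscle and myofibroblasts, had 430, 367, 546, 186 and 111 CPM in DMSO libraries 1 to 5 and 424, 393, 519, 282 and 177 CPM in FICZ libraries 1 to 5. Replicate 3 was the highest and replicate 5 the lowest in both treatments. Between the numbers the level differed by 3.79-fold, with an adjusted p of 0.0356 by an edgeR test of all number terms beside the treatment. This call was lost without any one of the 8 libraries numbered 1 to 4, and without both libraries numbered 5. *Acta2* showed 345, 298, 409, 203 and 195 CPM with DMSO and 322, 274, 453, 280 and 155 CPM with FICZ. Here too replicate 3 was highest and replicate 5 lowest, with a 2.47-fold range (edgeR unadjusted p = 0.0016, adjusted p = 0.0615).

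*Cnn1*, which marks differentiated smooth muscle, was detected at a low level throughout, with 4.41, 1.10, 2.40, 1.34 and 0.390 CPM in the DMSO libraries and 3.21, 1.23, 2.50, 1.36 and 0.993 CPM in the FICZ libraries. These values rest on 19 to 168 reads a library, above the limit of 3 counts. Replicate 1 was the highest and replicate 5 the lowest in both groups (5.66-fold, edgeR unadjusted p = 0.00245, adjusted p = 0.0733). *Myl9* had 66.9, 63.4, 63.6, 43.0 and 32.4 CPM with DMSO and 60.2, 51.4, 59.0, 58.1 and 38.5 CPM with FICZ. Replicate 5 was again the lowest in each group, while replicate 4 was low with DMSO only (1.79-fold between numbers, edgeR unadjusted p = 0.0151, adjusted p = 0.150).

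**Figure D4:**
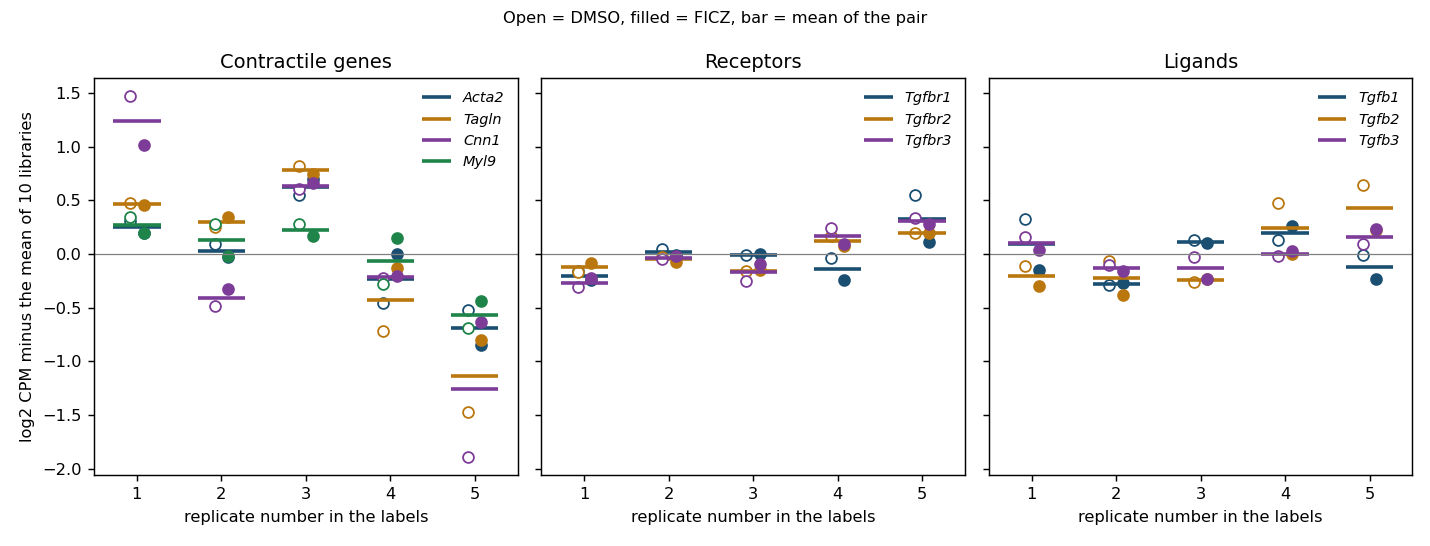
Log2 CPM of each gene minus its mean over 10 libraries, by replicate number, for DMSO (open) and FICZ (filled), with the mean of each pair as a bar. The contractile genes lie below their means in both libraries numbered 5, and the receptors, *Tgfb2* and *Tgfb3* lie above theirs. Open and filled points of one number lie close together for most genes.

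The receptors, *Tgfb2* and *Tgfb3* were highest in replicate 5 by their means, with smaller ranges, and none of them was called between numbers after adjustment. *Tgfbr3* had 217, 261, 227, 318 and 340 CPM in the DMSO libraries and 232, 266, 253, 287 and 326 CPM in the FICZ libraries, with replicate 5 the highest in both (1.49-fold, edgeR unadjusted p = 0.00436, adjusted p = 0.0918). *Tgfbr2* ranged over 1.28-fold (edgeR adjusted p = 0.162), *Tgfbr1* over 1.44-fold (adjusted p = 0.176) and *Tgfb2* over 1.59-fold (adjusted p = 0.0986), each highest in replicate 5 and each under 0.05 before adjustment. *Tgfb3* ranged over 1.22-fold, and its DMSO replicate 5 (42.9 CPM) lay below DMSO replicate 1 (45.1 CPM). *Tgfb1* (edgeR adjusted p = 0.301) and *Tgfb3* (edgeR adjusted p = 0.350) missed the threshold before adjustment too. Across the 10 genes 8 passed it between numbers, beside 19.6% of all genes, and 1 (*Tagln*) passed after adjustment, beside 1.80% of all genes.

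As a share of the sum of squares of log2 CPM over the 10 libraries, the replicate number took a median of 86.3% over the 10 genes and 58.1% over all genes. The treatment took a median of 1.60% over the 10 genes and 4.35% over all. The number held 95.7% of the spread of *Tgfbr2*, 93.8% of *Tgfbr3* and 92.2% of *Tagln*. The treatment share was largest for *Tgfb2* at 17.8% and *Tgfbr1* at 13.3%. The number terms take more degrees of freedom than the single treatment term, so these shares are to be read against those of all genes. The median log2 range between numbers was 1.61 for the 4 contractile genes, 0.53 for the receptors, 0.48 for the ligands and 0.43 over all genes.

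**Figure D5:**
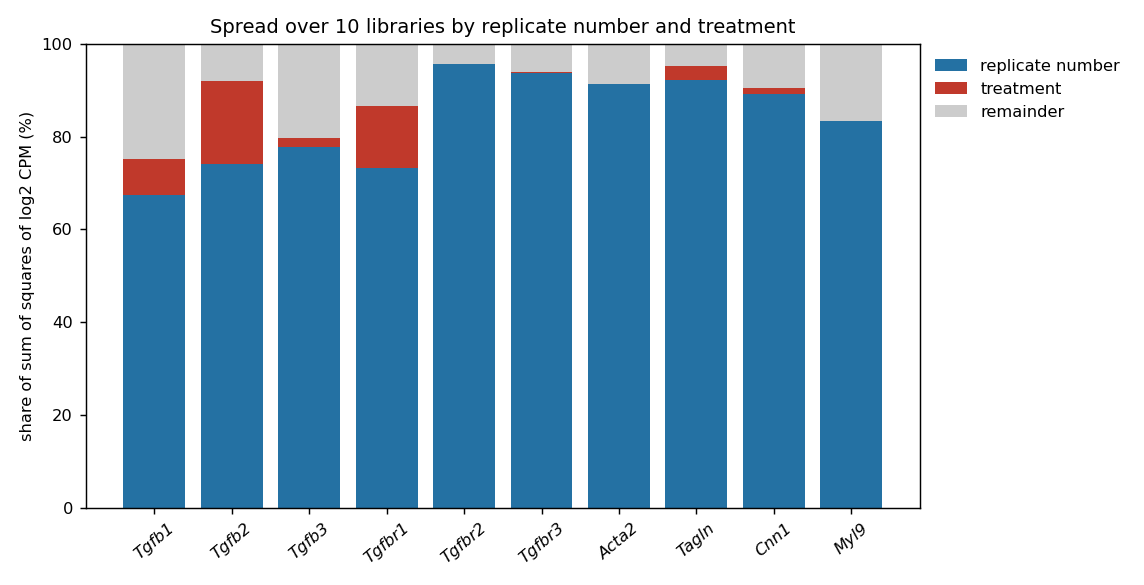
Share of the sum of squares of log2 CPM over 10 libraries that goes to the replicate number (blue), the treatment (red) and the remainder (grey), for each gene. The number takes between 67.4% (*Tgfb1*) and 95.7% (*Tgfbr2*), and the treatment at most 17.8% (*Tgfb2*).

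Markers of other cell types were set beside these results. The ASPC list (*Pdgfra*, *Ly6a*, *Cd34*, *Dcn* and others) was detected with 10 of 10 genes and summed to 3420 to 4790 CPM with DMSO and 3520 to 4230 with FICZ. Mural markers summed to 56.0 to 115 CPM with DMSO and 68.9 to 102 with FICZ. Within that list *Myocd*, the smooth muscle co-factor of SRF, had at most 16 counts in a library, and *Des* was the largest part of the sum. The mural genes did not move as one. In the DMSO and FICZ libraries numbered 5, *Des* (26.5 and 34.2 CPM) and *Lmod1* (3.65 and 6.52 CPM) had the lowest values of their groups, whereas *Rgs5* (2.96 and 1.85 CPM), *Abcc9* (5.83 and 5.71 CPM) and *Kcnj8* (0.739 and 0.485 CPM) had the highest. Endothelial markers summed to 65.6 to 88.3 and 70.9 to 85.5 CPM, of which *Tek* gave most and *Pecam1* at most 1.62 CPM. Immune markers summed to 21.8 to 37.8 and 19.8 to 32.7 CPM with *Ptprc* at most 1.70 CPM, mesothelial markers to 72.9 to 136 and 75.8 to 92.2 CPM, and adipocyte markers to 948 to 1430 and 957 to 1340 CPM, mostly *Lpl*, with *Lep* at 0 counts in each library. By replicate number 1 to 5 the adipocyte sum was 948, 1070, 1180, 1260 and 1430 CPM with DMSO and 957, 1010, 1170, 1220 and 1340 CPM with FICZ, and the ASPC sum was 3420, 3740, 3530, 4420 and 4790 CPM with DMSO and 3520, 3640, 3700, 4230 and 4180 CPM with FICZ. The adipocyte sum was thus highest in the libraries numbered 5 of both groups. *Lpl* was highest there too (1380 CPM with DMSO and 1250 CPM with FICZ), and the paper names it among early differentiation genes of precursor cells. The other detected adipocyte genes did not follow in both groups. *Adipoq* (7.05 and 6.89 CPM) and *Plin1* were highest in the libraries numbered 4. *Fabp4* was lowest in DMSO replicate 5 (32.8 CPM). *Cidec* was highest in DMSO replicate 5 (5.15 CPM) but not in FICZ replicate 5 (0.762 CPM). Between numbers 2 adipocyte genes and 1 ASPC gene were called by edgeR, and 0 genes of the mural, mesothelial, endothelial, immune and hepatocyte lists. Their part in the differences between numbers was not tested. In bulk RNA, fewer cells of a type and less RNA per cell cannot be told apart.

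Transcripts of liver genes, which are not markers of ASPCs, were highest in DMSO replicate 5. The 12 hepatocyte markers summed to 1640 to 9540 CPM with DMSO and 1770 to 2380 CPM with FICZ, and the DMSO libraries numbered 1, 4 and 5 had 3980, 3900 and 9540 CPM. DMSO replicate 5 also held the highest *Tgfb2*, *Tgfbr1* and *Tgfbr3* and the lowest *Tagln*, *Cnn1* and *Myl9*. FICZ replicate 5, with 2180 CPM of liver transcripts, had the lowest contractile genes of its group as well. Leaving out both libraries numbered 5 in the fit with the block gave log2 fold changes of -0.25 for *Tgfb2*, -0.09 for *Tgfbr1*, 0.14 for *Tagln* and 0.09 for *Acta2*, none of them called. The part of the liver transcripts in the remaining results was not tested.

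The neighbouring steps of the pathway gave the same count for FICZ. Among genes that store or release latent TGF-beta 0 of 15 tested were called and 0 had an unadjusted p under 0.05 by edgeR, beside 0.0211% and 4.82% of all genes. *Fbn1*, the fibrillin that anchors latent complexes, had a log2 fold change of 0.04 ± 0.15 (SE), and *Thbs1*, the activator thrombospondin 1, of 0.28 ± 0.40. Among co-receptors, SMADs and feedback genes it was 0 of 18, with *Fkbp1a* at -0.03 ± 0.09 and *Smurf2*, a ubiquitin ligase for SMADs and receptors, at 0.05 ± 0.27. Among known TGF-beta target genes it was 0 of 20, with fibronectin (*Fn1*) at 0.05 ± 0.17 and *Col1a2* at -0.07 ± 0.13. Among other actomyosin genes it was 0 of 31, with *Actb* at -0.10 ± 0.14 and *Myh9* at -0.04 ± 0.27. The median log2 fold changes of these lists were 0.01, 0.01, -0.03 and 0.01, beside 0.01 for all genes. Each list also had 0 genes with groups that did not overlap, beside 0.47% of all genes. With the replicate block, 1 gene each of the latency (*Thbs1*), target (*Tgfbi*) and actomyosin (*Mylk*) lists, named after their values were seen, had an unadjusted p under 0.05, beside 4.65% of all genes, and 0 were called, beside 0.0561%.

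Between replicate numbers, 7 of 15 latency genes, 6 of 18 signalling genes, 11 of 20 target genes and 11 of 31 actomyosin genes had an unadjusted p under 0.05 by edgeR, beside the 19.6% of all genes. After adjustment 1, 1, 3 and 0 of them were called, beside 1.80%. Among the called genes, named after their values were seen, were *Thbs1*, *Smurf2*, *Ccn2* (CTGF) and *Tgfbi*. *Ccn2* spanned 6.64-fold between numbers (edgeR adjusted p = 0.0183) and *Thbs1* 4.03-fold (edgeR adjusted p = 0.0183). As no gene of the table was called without any one of the 8 libraries numbered 1 to 4, these calls were lost there too. *Ccn2* and *Thbs1* were highest in replicate 3 and lowest in replicate 5, as were *Tagln* and *Acta2*. *Tgfbi* (2.67-fold, edgeR adjusted p = 0.0166) was highest in replicate 4 and lowest in replicate 2. *Srf* itself had a 1.83-fold range with the highest value in replicate 3 and the lowest in replicate 5 (edgeR adjusted p = 0.102). *Mrtfa* had a 1.23-fold range with replicate 4 the highest and replicate 5 the lowest (edgeR adjusted p = 0.528). *Mrtfb* had a 1.36-fold range with replicate 5 the highest (edgeR adjusted p = 0.206). *Srf*, *Mrtfa* and *Mrtfb* were named outside the rule for the lists.

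Genes among the most like each of the 10 were sought by Pearson's r of log2 CPM centred on the group mean over the 10 libraries, among 9919 genes with a mean log2 CPM above 3, as a description. *Dusp5* and *Phlda1* were near to *Acta2* (r of 0.99 and 0.98), *Ankrd1*, *Tnfrsf12a* and *Slc35e4* to *Tagln* (0.99 each), *Mapkapk2*, *Ybx3* and *Grk2* to *Myl9* (0.97 to 0.99), and *Akr1b8*, *Ercc1* and *Pelo* to *Cnn1* (0.93 to 0.96). Among the ligands *Cck*, *Pmepa1* and *Max* were nearest to *Tgfb1* (0.91 to 0.93), *Ccl11* and *Htra3* to *Tgfb2* (0.98 each), and *Pth1r*, *Fam117a* and *Mpnd* to *Tgfb3* (0.86 to 0.87). For the receptors they were *Lmbr1*, *Zfp266* and *Rp2* for *Tgfbr1* (0.98 each), *Rbl2*, *Fut10* and *Gm14403* for *Tgfbr2* (0.98 to 0.99), and *Abcb8*, *Clcn6* and *Il1rl2* for *Tgfbr3* (0.99 each). The points share the replicate numbers and the library composition. By the same measure *Tagln* had r = 0.93 with *Myl9* and 0.91 with *Acta2*, and -0.97 with *Tgfbr2*.

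The annotation limits 4 of these readouts. Exons of *Tagln* (chromosome 9, 45929619 to 45936058, - strand, GRCm38) overlap *Pcsk7* and *Gm48529* on the opposite strand over 1349 of 1988 bases together. The strand setting of the counting is not given in the sources used here. *Pcsk7* ran from 33.1 to 48.7 CPM, with its lowest value also in DMSO replicate 5. Whether reads of the opposite strand entered the counts of *Tagln* was not tested. *Tgfb3* overlaps genes on the opposite strand over 420 of 3383 bases and *Tgfb2* over 124 of 5791 bases. *Tgfbr3* shares 3.85% of its 50-base words with the overlapping model *Gm43422*, and the shares of the other 9 genes were at most 0.59%.

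The AHR response itself was present in these libraries. *Cyp1a1*, the AHR-induced cytochrome, had a log2 fold change of 3.25 ± 0.38 (edgeR adjusted p = 0.0189), the repressor *Ahrr* of 1.66 ± 0.16 (adjusted p = 0.00324, edgeR) and *Tiparp* of 0.91 ± 0.12 (adjusted p = 0.0335, edgeR), while *Cyp1b1* at 0.62 ± 0.10 missed the threshold (edgeR adjusted p = 0.147). Total counts ranged from 38328611 to 50210111 per library, and 3 counts correspond to 0.0597 to 0.0783 CPM. All 20 pairs of libraries of one group differed by more than counting noise (chi-square per degree of freedom from 16.4 to 281).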

How the data were processed

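Bulk RNA sequencing of 5 DMSO and 5 FICZ libraries was analysed. According to the methods, the authors aligned reads with STAR 2.7.7 to mm10, and they deposited raw counts per gene symbol, with no normalization; the counting program, annotation and strand setting are not given in the sources used here. Counts were tested with edgeR 4.0.16 in R 4.3.3 (TMM, filter by expression, robust quasi-likelihood fit), with Benjamini-Hochberg adjustment over 14251 genes and a threshold of 0.05. Alternatives were DESeq2 1.42.0, other scalings, no filter, the replicate number as a block and leaving out each library. Single values were compared by exact permutation over 252 arrangements, whose smallest p is 0.00794. A prior count of 2 was used in log2 CPM. The script was tested on simulated data.

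Libraries of the same number deviated together from their group means (correlations across genes from 0.15 to 0.32 in 5 pairs, against a mean of -0.06 for different numbers), so the numbers were taken to pair the libraries, although no source says what they mark. Members and lists were chosen with earlier results of these data known. The test between numbers, its alternatives and the fit without both libraries numbered 5 were added after seeing the data. Genes of the lists were named at an unadjusted p under 0.05, or else the 2 with the highest mean CPM, apart from those marked otherwise. Gene positions, exon lengths and overlaps came from GENCODE (GRCm38). The 95% intervals come from the edgeR fit and include the spread between libraries, while floors of 3 counts cover counting error only. For each member the genes with the highest Pearson's r were named, up to 3, and a few genes that these rules select are not reported here.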

Additional observations from a re-analysis of the deposited data

Results flagged for a closer look

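Each group of 5 libraries was searched for a library far from the others, over the CPM of the 10 genes and the ligand and receptor shares, 32 groups in all. In 1 of them the highest library stood apart. The share of *Tgfb2* among the 3 ligands was 10.5% in FICZ replicate 5 and 7.80% to 8.17% in the other FICZ libraries, and the gap took 0.863 of the whole range of the group. Chance would give about 1.6 such groups. The *Tgfb2* share was also highest in replicate 5 with DMSO, at 13.2%.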

How the results depend on the processing

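In FICZ against DMSO 0 of the 10 genes and 0 genes of the 4 lists were called under each of 17 alternatives, while over all genes 3 were called in the comparison of the groups, 16 by DESeq2, 8 by edgeR with the replicate block (also without both libraries numbered 5), 26 by DESeq2 with it, and 1 to 4 when a library was left out. An unadjusted p under 0.05 was found for 1 of the 10 genes in these 3 fits with the replicate block. The fitted log2 fold change was above 0 in 3 of 10 genes, in 5 with the replicate block by either tool, and in 2 to 7 when a library was left out. The sign of the log2 fold change differed from the reported one in 7 of 17 alternatives for *Cnn1*, 6 for *Myl9*, 5 for *Tgfbr2*, 3 for *Acta2* and *Tagln* and 1 for *Tgfb3*. The reported estimate of *Tgfbr3* rounded to 0.0 and its alternatives ran from -0.09 to 0.09, so its sign was not stable either. Without a library the difference in share (FICZ minus DMSO) ran from -3.02 to -1.30 percentage points for *Tgfbr1* and from 1.08 to 2.42 for *Tgfbr3*, reaching an exact permutation p of 0.0476 for both without DMSO replicate 4. By the longest transcript *Tgfb1* made up 67.8% and 67.3% of the ligands in DMSO and FICZ. Between replicate numbers 1 of the 10 genes and 257 genes were called, by DESeq2 6 and 1491, and without both libraries numbered 5 1 (*Cnn1*) and 433; without 1 library the counts ran from 0 to 6 and from 0 to 3196. The highest were reached without FICZ replicate 5 (6 and 3196) and without DMSO replicate 5 (3 and 792), and both counts were 0 without any one of the other 8 libraries, with 7 or 8 of the 10 genes still under an unadjusted p of 0.05. The block changed no call of a list at the adjusted threshold, and 1 gene each of the latency, target and actomyosin lists then had an unadjusted p under 0.05, against 0 without it.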
